A study of Mus musculus with 12 samples.

Results

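The genes described here are 9 that define Sertoli cells or carry their hormone signals, taken as the rows of the gene table whose symbol was Sox9, Wt1, Gata4, Gata1, Dmrt1, Fshr, Inha, Inhbb or Amh. All 9 were present among 20718 genes, and all 9 passed the filter on low counts that left 16296 genes for testing. They were measured by RNA-seq of whole testis in 12 libraries of mice (strain given as IRC mouse in the labels and as ICR in the study's methods), in 4 groups of 3 libraries. The F0_5251KD group received lentivirus for knockdown of the long non-coding RNA lncRNA5251, and its control F0_3NC received a control shRNA in the same LV3 backbone. The F0_5251OV group received lentivirus for overexpression of lncRNA5251, and its control F0_5NC received the empty LV5 backbone. Per the methods, every group, controls included, was injected into the testis at 4 weeks of age, raised for 5 weeks, mated at 9 weeks for 4 days and kept for 4 further days. The knockdown virus was a mixture of shRNAs, and neither the labels nor the methods say which testicular cells were infected. Whether each library is a different mouse is not stated, so p-values measure the spread between libraries, which may be technical. The level of lncRNA5251 itself was not analysed here.

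Sertoli cells are the somatic cells of the seminiferous tubule that nourish germ cells and form the blood-testis barrier. SOX9 and WT1 are transcription factors of Sertoli cell fate, GATA4 and GATA1 are zinc-finger factors that act on gonadal promoters, and DMRT1 maintains the male fate of the gonad. FSHR is the receptor through which pituitary follicle-stimulating hormone (FSH) acts on the Sertoli cell. The cell answers with inhibin B, a dimer of the subunits encoded by Inha and Inhbb that holds back FSH release, and in the immature testis with anti-Müllerian hormone (AMH), whose level is low in adults. Several of these genes are not restricted to Sertoli cells: DMRT1 is also made by spermatogonia, and GATA4 and the inhibin alpha subunit by Leydig cells, the source of testosterone.

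In the mouse genome (GRCm38, the assembly of the mm10 build, with positions from RefSeq and strands from GENCODE) the genes lie on 8 chromosomes. Sox9 (Entrez Gene 20682) is at chr11:112782210-112787757 on the plus strand, and Wt1 (22431) at chr2:105126529-105173614 on the plus strand. Gata4 (14463) is at chr14:63198914-63271712 on the minus strand, Gata1 (14460) at chrX:7959260-7976663 on the minus strand, and Dmrt1 (50796) at chr19:25505618-25604328 on the plus strand. Fshr (14309) is at chr17:88984952-89200675 on the minus strand. Inha (16322) is at chr1:75507077-75510366 on the plus strand, Inhbb (16324) at chr1:119415463-119422248 on the minus strand, and Amh (11705) at chr10:80805240-80807679 on the plus strand. No other annotated gene overlapped any of them, on either strand, and their estimated counts were whole numbers in every library.

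Promoter sequence from RefSeq (GRCm38.p6) matched 4 of the 9 genes, Gata1, Fshr, Inha and Inhbb. The 250 bases upstream of the start of Fshr (chr17:89200676-89200925, minus strand) and of Inhbb (chr1:119422249-119422498, minus strand) are given below, 5′ to 3′, because they precede the receptor for FSH and the beta subunit of the hormone that restrains FSH. Capitals mark the only match in each to the motifs searched.
Fshr: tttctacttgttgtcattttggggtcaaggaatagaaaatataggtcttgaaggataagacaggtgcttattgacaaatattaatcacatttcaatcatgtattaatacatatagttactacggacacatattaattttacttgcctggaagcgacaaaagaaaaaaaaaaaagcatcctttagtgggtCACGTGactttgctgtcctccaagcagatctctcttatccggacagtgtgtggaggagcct
Inhbb: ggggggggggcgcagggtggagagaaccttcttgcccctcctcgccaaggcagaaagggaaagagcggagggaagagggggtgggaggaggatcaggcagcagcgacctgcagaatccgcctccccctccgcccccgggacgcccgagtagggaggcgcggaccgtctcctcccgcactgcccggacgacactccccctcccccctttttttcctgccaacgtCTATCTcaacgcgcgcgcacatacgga
In Fshr the capitals are an E-box (CACGTG), the site of helix-loop-helix factors, at -61 to -56 from the start. In Inhbb they are the GATA motif read on the other strand, at -27 to -22. The motifs were searched on both strands over the same 250-base window of 32817 promoters. The GATA motif (AGATAA or AGATAG or TGATAA or TGATAG) was found in 26.6% of promoters and in 1 of the 4 genes. The NR5A1 motif AGGTCA was found in 14.0% and, of the 4 genes, in Inha at -69 to -64. The E-box was found in 6.02% and, of the 4, in Fshr alone. The SOX motifs ACAATG and ACAAAG (25.2% of promoters), the cAMP response element TGACGTCA (1.55%) and TGACG (17.7%), which the full element contains, matched none of the 4. The Inha window overlapped an annotated exon of the gene and the Gata1 window preceded one of several annotated first exons, so these are not shown. The E-box was added to the search after the windows had been read, and a match describes letters and not a bound site.

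Library totals lay between 15431383 and 16355720 estimated counts, a ratio of 1.06, so depth hardly differed between groups. Of the 9 other Sertoli cell markers examined (Cldn11, Clu, Rhox5, Rhox8, Cst9, Cst12, Aard, Trf and Dhh), all 9 had counts in every library, and Foxl2, a granulosa cell gene of the ovary, had 0 to 2 counts per library, so the tissue label fitted its markers. One library stood apart in these 9 genes. F0_5NC replicate 1 had the largest TMM scaling factor (1.078) and the highest level of all 12 libraries for 9 of the 9 genes, whereas 16.1% of all genes tested were highest there. The values of the 9 genes and the counts over lists that rest on F0_5NC are therefore given with and without it. Over all genes, other libraries differed more from their own group. Chi-square per gene against the other replicates was 17.72 and 20.2 for F0_3NC replicate 2 and 13.51 and 16.49 for F0_5251OV replicate 1. For F0_5NC replicate 1 it was 13.12 and 9.7. The lists are not given without those other libraries. In whole testis, fewer Sertoli cells and less RNA per Sertoli cell cannot be told apart.

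The order of the genes by level was set on the deposited RPKM values, which are per length. Inha was by far the most abundant, with a mean of 49.47 RPKM over the 12 libraries (SD 10.64), and its lowest library (34.31) lay above the highest library of any other member. Wt1 (9.22, SD 1.47) and Dmrt1 (8.86, SD 1.10) came next and could not be ordered, since Wt1 was the higher in 6 of 12 libraries. Gata4 (5.92, SD 1.13) and Inhbb (5.74, SD 0.91) could not be ordered either, with Gata4 higher in 7 of 12. Gata1 (4.68, SD 0.83) was below Inhbb and above Sox9 (3.09, SD 0.71) within each of the 12 libraries, although their ranges overlapped. Fshr (1.23, SD 0.22) lay below every library of Sox9. Amh was last at 0.80 RPKM (SD 0.36), below Fshr in 11 of 12 libraries. The 2 subunits of inhibin B thus differed widely in transcript level, the RPKM of Inhbb being 0.104 to 0.144 of that of Inha over the 12 libraries. Amh varied most between libraries (coefficient of variation 0.443) and Dmrt1 least (0.124).

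**Figure D1:**
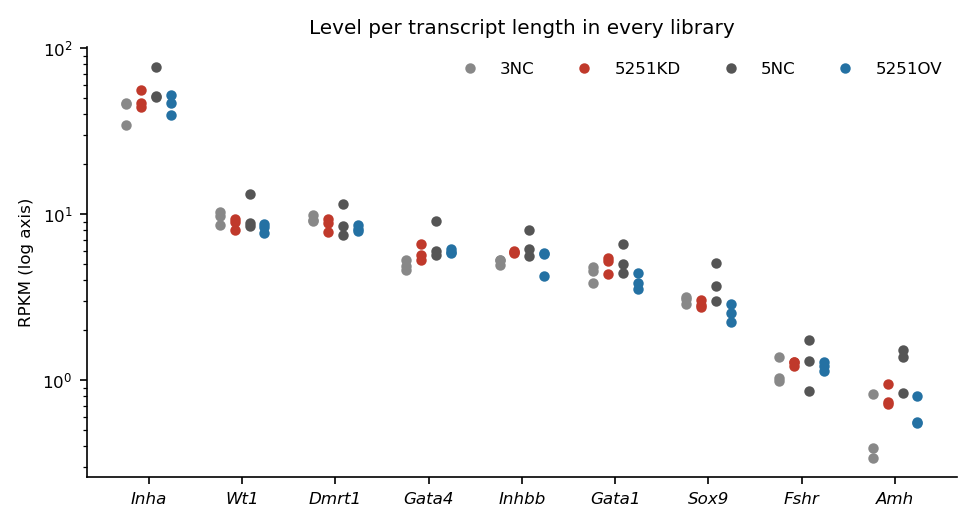
Deposited RPKM (log axis) of the 9 genes, ordered by their mean, in each of the 12 libraries (points coloured by group). Inha sits between 34.31 and 77.67 RPKM, above all others, and Amh between 0.34 and 1.52.

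The transcription factors were examined first, on CPM, the count scaled to a common library size with TMM factors. Sox9, a transcription factor of Sertoli cell fate, was at 12.82, 12.22 and 11.69 CPM in F0_3NC (replicates 1 to 3). It was at 11.25, 11.15 and 12.33 in F0_5251KD. In F0_5NC it was at 18.88, 15.20 and 11.96, against 11.47, 10.38 and 9.24 in F0_5251OV. All 3 overexpression libraries lay below all 3 of their control, whereas the knockdown libraries overlapped theirs. For F0_5251OV against F0_5NC the log2 fold change of Sox9 was -0.57 ± 0.15 (SE, with a 95% interval of -0.89 to -0.24), with an unadjusted p of 0.00217 and an adjusted p of 0.511 by edgeR's quasi-likelihood test with Benjamini-Hochberg adjustment. It was -0.39 ± 0.135 without F0_5NC replicate 1 (edgeR unadjusted p = 0.014, adjusted p = 0.987). For F0_5251KD against F0_3NC it was -0.08 ± 0.15. Between the controls, F0_3NC against F0_5NC, it was -0.33 ± 0.148 (edgeR unadjusted p = 0.0459, adjusted p = 0.414). That value was -0.15 ± 0.135 without F0_5NC replicate 1.

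Wt1, a zinc-finger factor kept on throughout Sertoli cell life, was at 29.12, 30.35 and 26.09 CPM in F0_3NC against 25.99, 23.86 and 27.91 in F0_5251KD, and at 36.62, 25.70 and 26.29 in F0_5NC against 25.70, 23.23 and 25.78 in F0_5251OV. The groups overlapped in every comparison. Apart from F0_5NC replicate 1, the libraries of Wt1 lay between 23.23 and 30.35 CPM. Its log2 fold change was -0.14 ± 0.132 for knockdown and -0.25 ± 0.132 for overexpression, the latter -0.06 ± 0.106 without F0_5NC replicate 1. F0_3NC against F0_5NC gave -0.05 ± 0.131, and 0.13 ± 0.106 without that library.

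Gata4, which acts with NR5A1 on the Amh and inhibin promoters, was at 16.24, 17.21 and 15.39 CPM in F0_3NC against 21.35, 17.44 and 18.65 in F0_5251KD, and at 27.57, 18.96 and 19.57 in F0_5NC against 19.12, 19.71 and 20.81 in F0_5251OV. The 3 lowest values of the 12 were the 3 of F0_3NC, and no library of that group overlapped either F0_5251KD or F0_5NC. The log2 fold change was 0.23 ± 0.139 for F0_5251KD against F0_3NC (95% interval -0.07 to 0.53, edgeR adjusted p = 0.897) and -0.44 ± 0.139 for F0_3NC against F0_5NC (unadjusted p = 0.00734, adjusted p = 0.293). The difference between controls was -0.25 ± 0.113 without F0_5NC replicate 1 (edgeR unadjusted p = 0.0491). For overexpression the value was -0.15 ± 0.137, and 0.04 ± 0.112 without that library.

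Gata1, expressed in the testis in Sertoli cells of certain stages of the tubule, was at 8.70, 6.81 and 8.26 CPM in F0_3NC against 9.66, 9.47 and 7.86 in F0_5251KD, and at 10.97, 8.19 and 9.08 in F0_5NC against 6.27, 7.05 and 8.27 in F0_5251OV. A single overexpression library (8.27) reached the range of its control. For overexpression the log2 fold change was -0.39 ± 0.158 (edgeR unadjusted p = 0.0283, adjusted p = 0.552) and, without F0_5NC replicate 1, -0.27 ± 0.164 (unadjusted p = 0.13). For knockdown it was 0.18 ± 0.158 with overlapping groups. F0_3NC against F0_5NC gave -0.25 ± 0.157, and -0.13 ± 0.163 without F0_5NC replicate 1.

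Dmrt1, the gene that keeps the gonad male, was at 20.88, 18.73 and 19.69 CPM in F0_3NC against 18.94, 18.61 and 16.35 in F0_5251KD, and at 22.41, 16.06 and 17.65 in F0_5NC against 16.36, 17.36 and 18.74 in F0_5251OV. The groups overlapped in each comparison. The log2 fold changes were -0.14 ± 0.125 for knockdown, -0.10 ± 0.125 for overexpression and 0.08 ± 0.125 for F0_3NC against F0_5NC. The last 2 were 0.05 ± 0.112 and 0.22 ± 0.112 without F0_5NC replicate 1 (edgeR unadjusted p = 0.662 and 0.0691), and F0_3NC then lay above the 2 libraries left in F0_5NC.

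**Figure D2:**
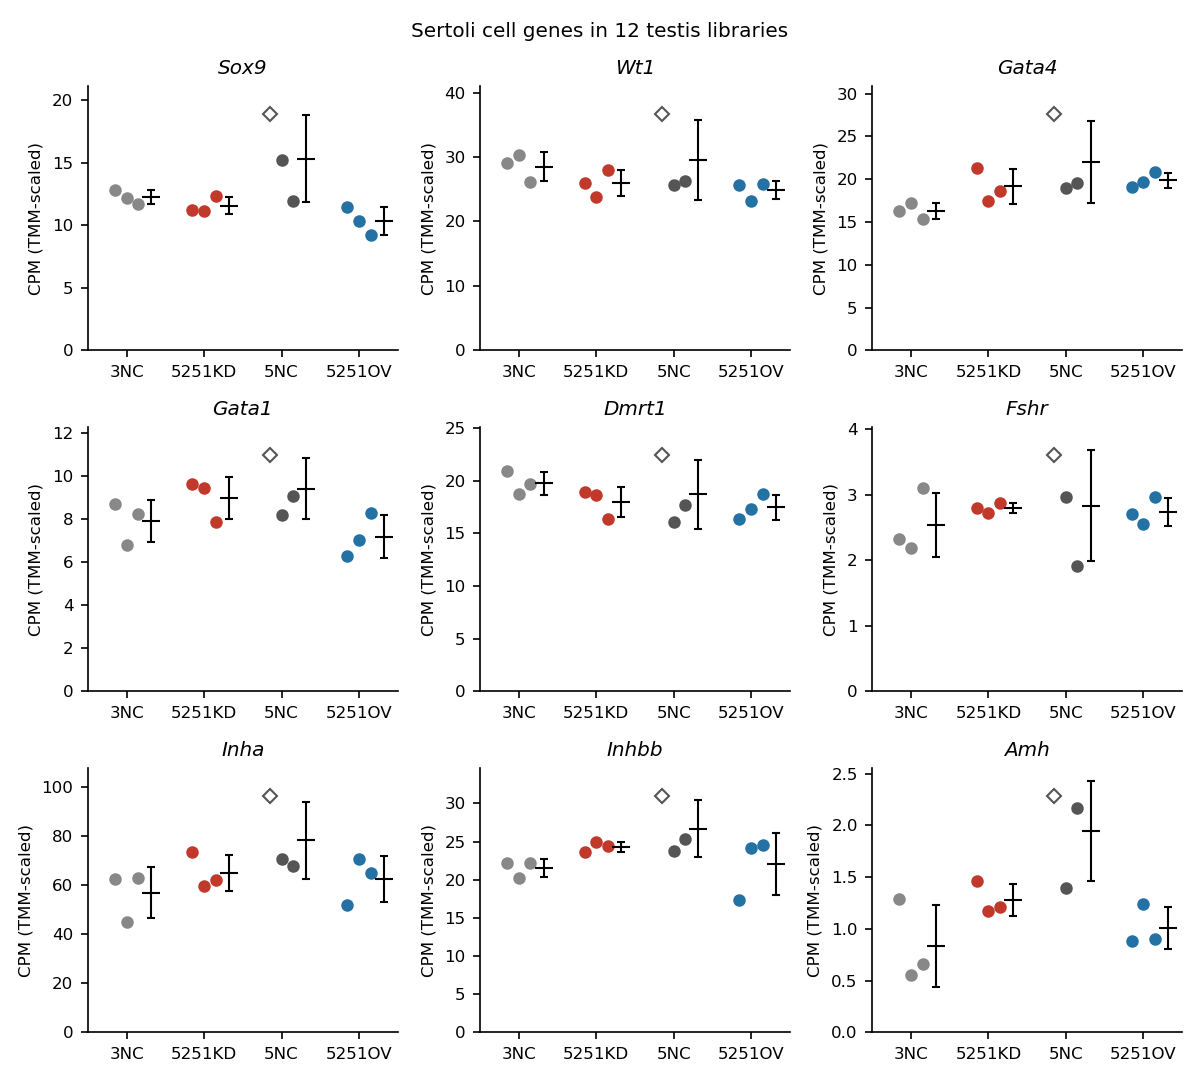
CPM (TMM-scaled) of the 9 genes in each of the 12 libraries by group, with the group mean and SD beside the points; the open diamond is F0_5NC replicate 1. That library is the highest of the 12 in 9 of 9 panels, and the 3 lowest values of Gata4 are those of F0_3NC.

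Fshr, the receptor, was at 2.32, 2.19 and 3.10 CPM in F0_3NC against 2.80, 2.72 and 2.87 in F0_5251KD, and at 3.60, 2.97 and 1.92 in F0_5NC against 2.70, 2.55 and 2.97 in F0_5251OV. Both treated groups lay inside the range of their controls, which spread the most. The estimated counts behind these values were 30 to 60 per library, so counting error was wide: 30 counts have an exact Poisson 95% interval of 20.2 to 42.8 and 60 counts one of 45.8 to 77.2. These intervals cover counting error only. The log2 fold changes were 0.14 ± 0.234 (95% interval -0.36 to 0.65) for knockdown and -0.05 ± 0.232 (-0.55 to 0.45) for overexpression, the latter 0.16 ± 0.237 without F0_5NC replicate 1. Both intervals included 0. F0_3NC against F0_5NC gave -0.16 ± 0.234, and 0.05 ± 0.238 without F0_5NC replicate 1.

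Inha, the alpha subunit shared by the inhibins, was at 62.82, 45.06 and 63.09 CPM in F0_3NC against 73.65, 59.58 and 62.08 in F0_5251KD, and at 96.36, 70.70 and 68.06 in F0_5NC against 52.09, 70.74 and 65.07 in F0_5251OV. The control groups did not overlap each other, while each treated group overlapped its own control. The log2 fold change was -0.46 ± 0.163 for F0_3NC against F0_5NC (edgeR unadjusted p = 0.0139, adjusted p = 0.342), -0.32 ± 0.163 for overexpression (adjusted p = 0.58) and 0.19 ± 0.163 for knockdown (adjusted p = 0.897). When F0_5NC replicate 1 was left out the first was -0.29 ± 0.16 and the second -0.15 ± 0.16.

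Inhbb, the beta B subunit, was at 22.23, 20.19 and 22.20 CPM in F0_3NC against 23.57, 24.90 and 24.40 in F0_5251KD, and at 30.92, 23.79 and 25.39 in F0_5NC against 17.36, 24.21 and 24.56 in F0_5251OV. F0_3NC lay below every library of F0_5251KD and of F0_5NC, and the lowest value of the 12 was that of F0_5251OV replicate 1. The log2 fold change was 0.17 ± 0.136 for knockdown (edgeR adjusted p = 0.897), -0.28 ± 0.135 for overexpression (adjusted p = 0.578) and -0.31 ± 0.135 between controls (unadjusted p = 0.0381, adjusted p = 0.404). Leaving out F0_5NC replicate 1 gave -0.16 ± 0.136 for overexpression and -0.20 ± 0.136 between controls (edgeR unadjusted p = 0.261 and 0.176), and leaving out F0_5251OV replicate 1 gave -0.13 ± 0.117 for overexpression. Within libraries the Inhbb to Inha ratio of RPKM was alike in the 4 groups, with means of 0.124 ± 0.0174 (SD, n = 3) in F0_3NC against 0.122 ± 0.0163 in F0_5251KD, and of 0.111 ± 0.00868 in F0_5NC against 0.113 ± 0.00815 in F0_5251OV, and these ranges overlapped.

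Amh, the Müllerian duct inhibitor, gave the largest fold changes of the 9 and the lowest counts. It was at 1.29, 0.55 and 0.66 CPM in F0_3NC against 1.46, 1.17 and 1.21 in F0_5251KD, and at 2.28, 1.39 and 2.17 in F0_5NC against 0.88, 1.24 and 0.90 in F0_5251OV. F0_5NC was above F0_3NC and above F0_5251OV without overlap, whereas knockdown overlapped its control through F0_3NC replicate 1. The log2 fold change was -0.95 ± 0.326 for overexpression (95% interval -1.65 to -0.25, edgeR unadjusted p = 0.0119, adjusted p = 0.537) and -1.23 ± 0.334 for F0_3NC against F0_5NC (95% interval -1.95 to -0.50, unadjusted p = 0.00273, adjusted p = 0.222). It was 0.62 ± 0.348 for knockdown (unadjusted p = 0.0969, adjusted p = 0.897), a value that depended on single control libraries. It was 1.07 ± 0.36 without F0_3NC replicate 1 (edgeR unadjusted p = 0.0109, adjusted p = 0.792), 0.39 ± 0.368 without F0_3NC replicate 2, and 0.26 by limma on log2(RPKM + 1), a scale that understates the change of low genes. On that limma scale the value was -0.45 for overexpression and -0.56 between controls. In edgeR without F0_5NC replicate 1 the values were -0.82 ± 0.368 for overexpression and -1.10 ± 0.375 between controls. The counts per library ran from 9, with an exact Poisson 95% interval of 4.12 to 17.1, to 38, with one of 26.9 to 52.2.

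The question of the first comparison was whether knockdown of lncRNA5251 moved these genes. By edgeR none of the 9 passed an adjusted p of 0.05 for F0_5251KD against F0_3NC, where 0.0245% of all genes tested did, and 0 of 9 had an unadjusted p under 0.05, against 4.74% of all genes. DESeq2 also called 0 of 9. The knockdown libraries did not overlap their control for 2 of 9 genes, Gata4 and Inhbb, against 11.8% of all genes. Of the 9 log2 fold changes, 3 (Sox9, Wt1 and Dmrt1) were below 0, against 50.9% of all genes, and the median was 0.174 beside -0.004 over all genes. The 6 above 0 were Gata4, Gata1, Fshr, Inha, Inhbb and Amh, so the receptor and all 3 hormone genes were on that side. Without F0_3NC replicate 2 the median was 0.049.

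The second comparison asked the same of overexpression. Of the 9 genes 0 passed for F0_5251OV against F0_5NC by edgeR, as did 0.0% of all genes, and DESeq2 called 0 of 9. An unadjusted p under 0.05 was reached by 3 of 9, Sox9, Gata1 and Amh, against 8.77% of all genes. The groups did not overlap for Sox9 and Amh, 2 of 9, against 13.9%, and for the same 2 genes without F0_5NC replicate 1, against 20.3%. All 9 log2 fold changes were below 0, against 50.5% of all genes, with a median of -0.278 beside -0.002 over all genes. This pattern rested in large part on F0_5NC replicate 1: without it 6 of 9 were below 0, with a median of -0.15, an unadjusted p under 0.05 was left for Sox9 and Amh, 2 of 9 (4.14% of all genes), and Gata4, Dmrt1 and Fshr were at 0.04, 0.05 and 0.16. The count under 0.05 was 6 of 9 without F0_5NC replicate 2 (11.5% of all genes) and 5 of 9 without F0_5NC replicate 3 (9.55%). It was 4 of 9 without F0_5251OV replicate 2 (8.8%) or 3 (7.63%). Without F0_5251OV replicate 1 it was 2 of 9 (5.95%), and the median was -0.208.

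Most markers of other somatic cells of the testis were also below 0 for overexpression, where 50.5% of all genes were. For overexpression 8 of 8 Leydig cell markers were below 0 (median -0.22), as were 7 of 7 endothelial (-0.26), 6 of 7 peritubular myoid and smooth muscle (-0.36) and 6 of 7 macrophage markers (-0.34). An unadjusted p under 0.05 by edgeR was reached by 4 peritubular, 1 Leydig, 1 endothelial and 1 macrophage marker, against 8.77% of all genes. Of the germ cell lists, 4 of 7 spermatogonial (-0.07), 3 of 7 spermatocyte (0.07), 0 of 6 round spermatid (0.09) and 1 of 5 elongated spermatid markers (0.04) were below 0. With F0_5NC replicate 1 left out, 6 of 8 Leydig (-0.20), 5 of 7 endothelial (-0.10), 6 of 7 peritubular (-0.39) and 5 of 7 macrophage markers (-0.10) were below 0, beside 3 of 7 spermatogonial, 2 of 7 spermatocyte, 2 of 6 round spermatid and 5 of 5 elongated spermatid markers. By edgeR none of these markers passed an adjusted p of 0.05 for overexpression. For knockdown 6 of 8 Leydig (0.23), 7 of 7 endothelial (0.26), 7 of 7 peritubular (0.10) and 5 of 7 macrophage markers (0.13) were above 0, none past the threshold. Of all genes 50.9% were below 0 for knockdown. Between the controls, F0_3NC against F0_5NC, 5 of 8 Leydig (-0.08) and 7 of 7 endothelial markers (-0.12) were below 0. So were 4 of 7 peritubular (-0.12) and 5 of 7 macrophage markers (-0.29), against 49.9% of all genes. Without F0_5NC replicate 1 these 4 counts were 4 of 8, 4 of 7, 5 of 7 and 4 of 7. The part of these cells in the values of the 9 genes was not tested.

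Between the 2 control viruses, neither of which carries a sequence directed at lncRNA5251, F0_3NC against F0_5NC also had 0 of 9 genes past the edgeR threshold and 0 of 9 by DESeq2, where 0.331% of all genes passed in edgeR. An unadjusted p under 0.05 was reached by 5 of 9 (Sox9, Gata4, Inha, Inhbb and Amh), against 11.9% of all genes. Gata4, Inha, Inhbb and Amh, 4 of 9, did not overlap, against 17.0%, and without F0_5NC replicate 1 these and Dmrt1 did not, 5 of 9 against 26.1%. The log2 fold change was below 0 for 8 of 9, all but Dmrt1, against 49.9%, with a median of -0.311 beside 0.0 over all genes. Without F0_5NC replicate 1 it was below 0 for 6 of 9, and the median was -0.153. The unadjusted p was then under 0.05 for Gata4 and Amh, 2 of 9 (6.96% of all genes). That count was also 2 of 9 without F0_3NC replicate 2 (7.6%). It was 3 of 9 without F0_3NC replicate 1 or 3 (11.6% and 13.4%) or F0_5251KD replicate 2 or 3 (11.3% and 10.9%). The controls thus differed by a median as large as that between overexpression and its control. Backbone, control insert and any other difference in handling between these groups cannot be told apart. These comparisons share the control libraries, and so are not independent of each other.

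The difference of the knockdown and overexpression effects, each against its own control, was above 0 for 8 of 9 genes. Only Dmrt1 was below 0 (-0.04 ± 0.177), where 49.6% of all genes were. By edgeR 0 of 9 passed, as did 0.0% of all genes, and DESeq2 called 0 of 9. An unadjusted p under 0.05 was reached by Sox9, Gata1, Inha, Inhbb and Amh, 5 of 9, against 11.3% of all genes. The values were 1.57 ± 0.477 for Amh (95% interval 0.54 to 2.60, adjusted p = 0.394), 0.57 ± 0.224 for Gata1, 0.52 ± 0.23 for Inha, 0.49 ± 0.212 for Sox9 and 0.45 ± 0.191 for Inhbb. Without F0_5NC replicate 1 these were 1.45 ± 0.51, 0.46 ± 0.219, 0.35 ± 0.215, 0.32 ± 0.182 and 0.34 ± 0.183, 3 of 9 were below 0, and the median was 0.319 in place of 0.451. The count of 5 of 9 under 0.05 did not hold for several single libraries left out. It was 1 of 9 without F0_5NC replicate 1 (Amh, against 7.01% of all genes) or without F0_3NC replicate 2 (8.28%). It was 2 of 9 without F0_5251KD replicate 1, 2 or 3 (6.89%, 11.1% and 10.3%) or F0_5251OV replicate 1 (7.33%). Without F0_5251OV replicate 3 it was 3 of 9 (10.9%).

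**Figure D3:**
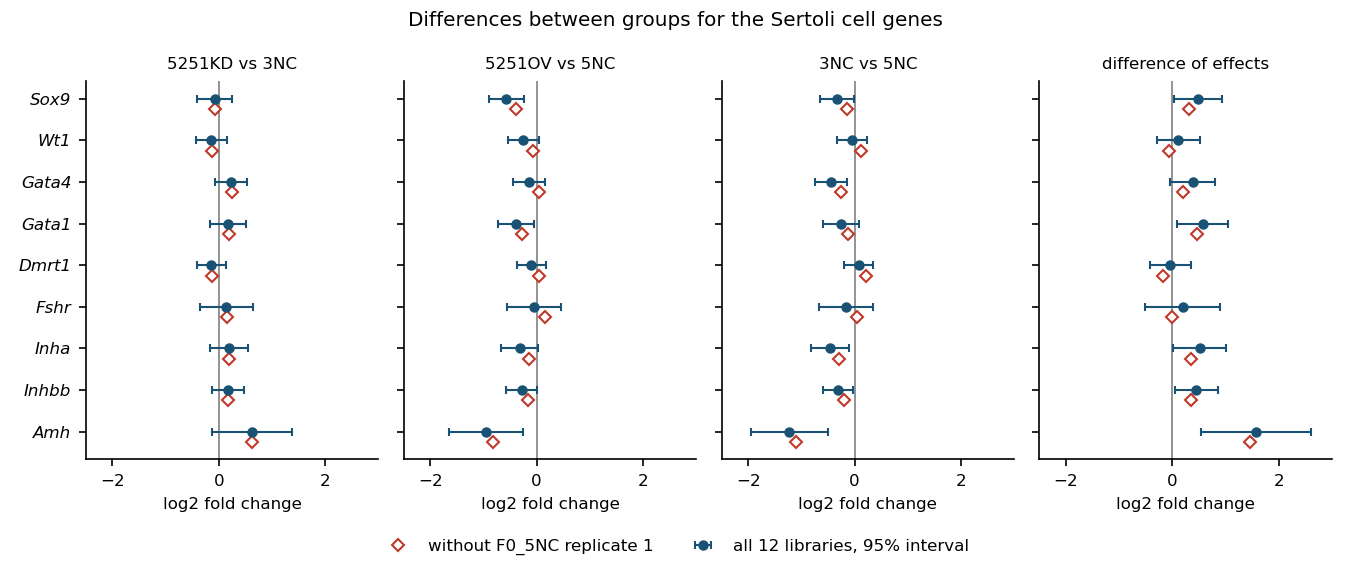
Log2 fold change of the 9 genes in the 3 comparisons and for the difference of effects (knockdown minus overexpression, each against its control), as filled points with 95% intervals from all 12 libraries and open diamonds without F0_5NC replicate 1. The 9 overexpression values lie below 0 with all libraries, and 3 of them (Gata4, Dmrt1 and Fshr) cross 0 without that library.

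Each gene was also expressed relative to Wt1 in the same library, a choice made after the levels had been seen. Wt1 is itself one of the 9 genes, so any change in it enters every ratio. Its Pearson r of log2 CPM with the others ran from 0.24 (Amh) to 0.753 (Sox9) over the 12 libraries. Whether the ratio sets aside a share of Sertoli cell RNA that the genes have in common was not tested. Gata4 relative to Wt1 was at 0.504, 0.512 and 0.533 in F0_3NC against 0.743, 0.660 and 0.604 in F0_5251KD, and at 0.681, 0.667 and 0.673 in F0_5NC against 0.672, 0.766 and 0.729 in F0_5251OV. F0_3NC was thus below all 9 other libraries, and F0_5NC replicate 1 lay with the others of its group. For F0_3NC against F0_5NC, 4 of 8 ratios (Sox9, Gata4, Inha and Amh) did not overlap, against 8.52% of all genes. For F0_5251KD against F0_3NC 2 of 8 (Gata4 and Inhbb) did not overlap, against 10.7%, and for F0_5251OV against F0_5NC 1 of 8 (Sox9), against 18.1%. Leaving out F0_5NC replicate 1 gave 5 of 8 between the controls, Inhbb added, against 25.6%, and 1 of 8 (Sox9) for overexpression, against 22.4%. Sox9 relative to Wt1 was 0.328, 0.329 and 0.265 in F0_5251OV and 0.380, 0.436 and 0.336 in F0_5NC. With all libraries each of the ratios that did not overlap had a two-sided exact permutation p of 0.1, the smallest that 3 against 3 libraries allow, and an adjusted p of 0.343 over the 24 ratios tested.

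**Figure D4:**
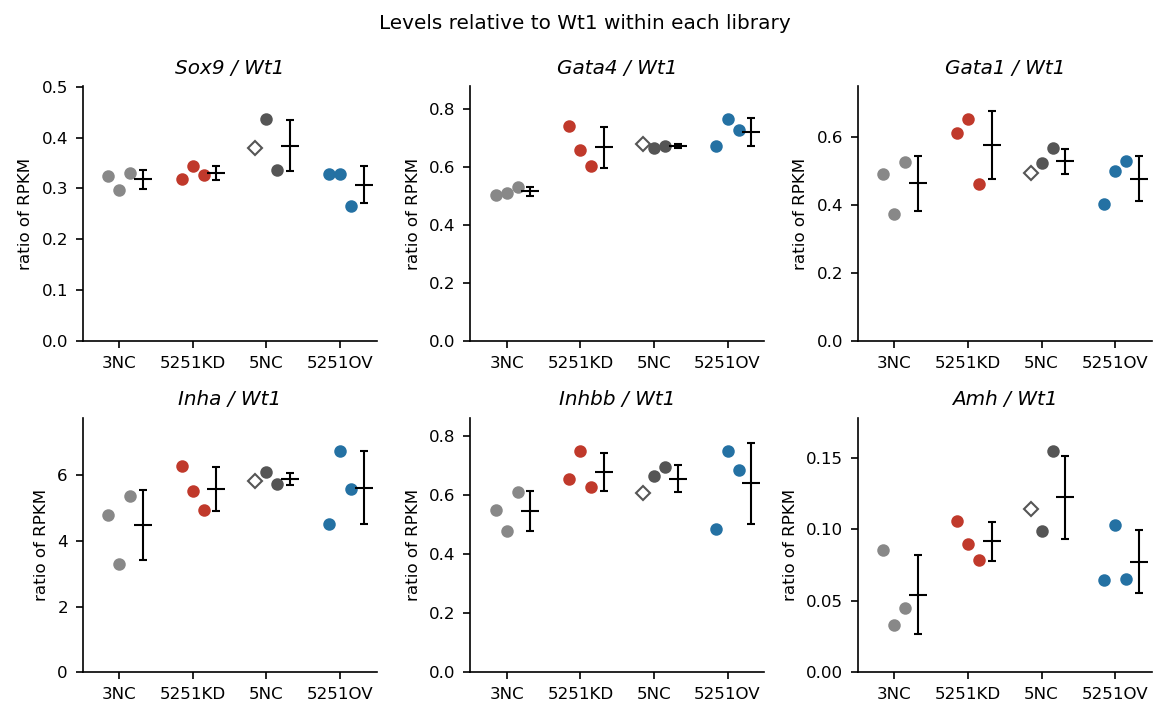
RPKM of Sox9, Gata4, Gata1, Inha, Inhbb and Amh divided by that of Wt1 in the same library, by group, with the mean and SD of 3 libraries; the open diamond is F0_5NC replicate 1. The ratio of Gata4 is 0.504 to 0.533 in F0_3NC and at least 0.604 in the other 9 libraries.

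Across the 12 libraries the log2 CPM of the 9 genes varied together. All 36 pairs had a Pearson r above 0, with a median of 0.437 and a range from 0.052 to 0.83. Without F0_5NC replicate 1 the median over 11 libraries was 0.029 (range -0.522 to 0.723) and 20 of 36 were above 0. The inhibin subunits Inha and Inhbb were the most alike (r = 0.83, and 0.706 without it), followed by Gata1 and Inhbb (0.818 and 0.723) and Amh and Inha (0.797 and 0.715). Sox9 and Wt1 were each other's closest member at 0.753, which was 0.388 without it. The genes outside the set most like the mean of the 9 were Cgn, Itpkb, Alad, Slc52a3 and Fam102a among 15158 candidates, with r from 0.961 to 0.973 over 12 libraries and from 0.839 to 0.916 over 11. The points are whole-testis libraries of nearly equal depth whose sums of cell type markers differ, and the values are given without a test.

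Some lists of cell type markers were also high in F0_5NC replicate 1. The summed CPM of the 9 other Sertoli cell markers was 1462 there, against 774.6 to 1076 in the 11 other libraries, and 7 of 9 were at their highest there. The 8 Leydig cell markers summed to 3094 there and to 3100 in F0_5251KD replicate 1, against 1486 to 2346 elsewhere. The 7 macrophage markers reached their highest sum of 105.0 there, and the 6 round spermatid markers their lowest of 1175, against up to 1550. As log2 values relative to the mean of the 12 libraries, the sum of the 9 genes was at 0.49 in that library, endothelium at 0.20, spermatogonia at 0.21, spermatocytes at -0.05, peritubular cells at -0.10, elongated spermatids at -0.20 and adipocytes at -0.41. Sums give abundant genes the most weight. Counted by gene, 3 of 8 Leydig, 4 of 7 peritubular, 5 of 7 macrophage, 2 of 7 endothelial and 2 of 7 spermatogonial markers were highest in F0_5NC replicate 1. None of the spermatocyte or spermatid markers was. By group the other Sertoli cell markers summed to 774.6 to 1048 in F0_3NC against 973.2 to 1065 in F0_5251KD, and to 1019 to 1462 in F0_5NC against 858.8 to 991.9 in F0_5251OV. F0_5NC was thus above F0_5251OV in every library, and the lowest library of all, F0_3NC replicate 2, was also the lowest of the 12 for Inha. The 4 epididymis genes found in the table summed to 2.16 to 11.4 CPM in F0_3NC and F0_5251KD, 18.5 to 115.8 in F0_5NC and 5.49 to 76.2 in F0_5251OV. By edgeR 1 of 3 tested epididymis genes and 1 of 4 adipocyte markers were called between the controls, against 0.331% of all genes. Both were lower in F0_3NC, the adipocyte gene being Plin1 (-1.46, edgeR adjusted p = 0.0219). Without F0_5NC replicate 1 the numbers called were 1 and 0. The part of these markers in the results was not tested.

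**Figure D5:**
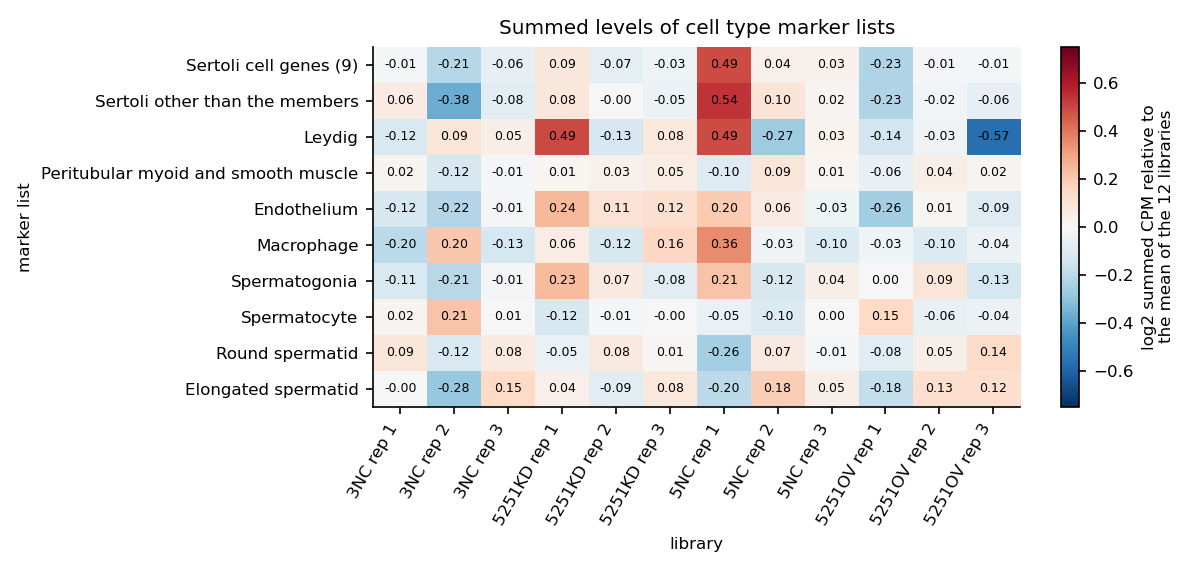
Summed CPM of the 9 genes and of testis cell marker lists (rows) in the 12 libraries (columns). Values are log2 relative to the mean of the 12, red above and blue below it. The epididymis list (-2.71 in F0_5251KD replicate 1 to 3.04 in F0_5NC replicate 2) and the adipocyte list are not shown. F0_5NC replicate 1 is at 0.54 for the Sertoli cell markers other than the 9 genes, 0.49 for Leydig cells and -0.26 for round spermatids.

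The 4 wider lists around the 9 genes were examined in the same fits, and by edgeR no gene of any of them passed an adjusted p of 0.05 in any comparison. DESeq2 called 1 gene of the first list, Nr2f2, between the controls, and none of the other lists or comparisons. The first held 32 tested genes outside the set, Sertoli cell products and other genes linked to Sertoli cells, not all restricted to these cells. The 9 other Sertoli cell markers whose sums are given above were among the 32. For overexpression 29 of 32 were below 0, with a median of -0.19, and 9 had an unadjusted p under 0.05 (8.77% of all genes). Between the controls 29 of 32 were below 0, with a median of -0.25, and 11 had an unadjusted p under 0.05 (11.9% of all genes). Without F0_5NC replicate 1 these were 25 of 32 with a median of -0.07 and none under 0.05 (4.14% of all genes) for overexpression. Between the controls they were 22 of 32 with a median of -0.10 and 4 under 0.05 (6.96%). For knockdown 20 of 32 were above 0, with a median of 0.05, and 3 had an unadjusted p under 0.05 (4.74% of all genes). Without F0_5NC replicate 1 that median was 0.06, and 4 were under 0.05 (5.38%).

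In that list Ptgds, the prostaglandin D synthase, had the highest value for knockdown (0.79 ± 0.241, edgeR adjusted p = 0.897) with 135.21 ± 23.94 CPM (SD, n = 3) in F0_3NC and 233.36 ± 64.99 in F0_5251KD. Kitl, the ligand of the germ cell receptor KIT, had the lowest (-0.70 ± 0.252, edgeR adjusted p = 0.897), being at 33.40 ± 9.15 CPM in F0_3NC and at 18.88 to 20.52 on average in the 3 other groups. Emx2, a homeobox gene of the early gonad, was the highest for overexpression at 0.18, and Shbg, which encodes the sex hormone-binding globulin, the lowest at -0.73 ± 0.291 (edgeR adjusted p = 0.552). Between the controls Nr2f2, an orphan nuclear receptor that is also known in Leydig lineage cells, had the lowest value (-0.91 ± 0.183, edgeR adjusted p = 0.0639) and Kitl the highest (0.81 ± 0.253, adjusted p = 0.291).

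The second list held 18 tested genes of inhibin, activin and AMH signalling: binding proteins, receptors and SMADs, with no ligand among them. It was divided evenly, with 9 of 18 above 0 for knockdown, 10 of 18 for overexpression and 10 of 18 between controls, and medians of -0.01, 0.01 and 0.03. An unadjusted p under 0.05 was reached by 2, 3 and 1 of them, against 4.74%, 8.77% and 11.9% of all genes. When F0_5NC replicate 1 was left out 8 of 18 were above 0 for overexpression and 12 of 18 between controls, with medians of -0.02 and 0.03. In each of these 2 comparisons 1 was then under 0.05 (4.14% and 6.96% of all genes). Fst, which encodes the activin-binding follistatin, was the lowest in both treatments, at -0.87 ± 0.439 for knockdown (edgeR adjusted p = 0.897) and -1.28 ± 0.456 for overexpression (edgeR adjusted p = 0.552). Its mean was 1.84 ± 0.39 CPM (SD, n = 3) in F0_3NC against 1.01 ± 0.25 in F0_5251KD, and 1.81 ± 1.39 in F0_5NC against 0.75 ± 0.09 in F0_5251OV. The highest were Bmpr1b (0.51), a type I receptor of bone morphogenetic proteins, for knockdown, Acvr1c (0.21), an activin-type receptor, for overexpression and Smad9 (0.15), a receptor-regulated SMAD, between controls, where Bmpr1b was the lowest (-0.50).

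The third list held 17 genes downstream of the FSH receptor, all tested. Medians were 0.00 for knockdown, -0.07 for overexpression and -0.05 between controls. An unadjusted p under 0.05 was found for 1, 1 and 0 of 17, against 4.74%, 8.77% and 11.9% of all genes. The medians for overexpression and between controls were both 0.02 without F0_5NC replicate 1, with 0 of 17 under 0.05 (4.14% and 6.96% of all genes). Akt1, a kinase of growth signalling, was the highest for knockdown (0.33 ± 0.153) and Rps6kb1, a ribosomal protein kinase, the lowest (-0.11). Adcy3, an adenylyl cyclase, was the lowest for overexpression (-0.32) and between controls (-0.26), and the cAMP phosphodiesterase gene Pde4b the highest in both (0.13 and 0.20).

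The fourth list held 16 tested partners and relatives of the transcription factors. Medians were 0.06 for knockdown, -0.05 for overexpression and -0.11 between controls. In each of the 3, 0 of 16 had an unadjusted p under 0.05, against 4.74%, 8.77% and 11.9% of all genes. Again 0 of 16 did without F0_5NC replicate 1 (5.38%, 4.14% and 6.96%). The medians were then -0.02 for overexpression and -0.11 between controls. Sox10, a relative of Sox9, was the highest for knockdown (0.44) and Gata3 the lowest (-0.21). For overexpression these were Dmrt3 (0.28) and Dmrta1 (-0.41), both relatives of Dmrt1, and between controls the histone demethylase gene Kdm3a (0.13) and Dmrta2 (-0.36). For the difference of effects 5, 3, 1 and 0 genes of the 4 lists had an unadjusted p under 0.05 (11.3% of all genes). Without F0_5NC replicate 1 these were 2, 1, 0 and 0 (7.01%). With all libraries its extremes were Ptgds (0.98) and Kitl (-0.69) in the first list, Smad7 (0.78) and Smad1 (-0.26) in the second, Akt1 (0.56) and Prkar2a (-0.16) in the third, and Dmrta2 (0.59) and Kdm3a (-0.18) in the fourth.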

How the data were processed

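Testis RNA-seq was analysed in 12 libraries, grouped as the sample titles give them. The study's methods name SOAPaligner (v. 2.20), with reads mapped to reference genes. The build is mm10 per the submitters' processing notes. Which tool counted the reads was not given in the sources used here. Per gene and library the authors deposited an estimated count and an RPKM value, which is the count per transcript length and library total. Some 12.0% of these counts were fractional (tolerance 1e-06), and all were rounded. The table also held 18 per-sample columns that match no sample and 14 columns of group means, which were not used. No strand-marking step is named.

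Counts were tested in 1 fit of 4 groups with edgeR 4.0.16 (R 4.3.3; TMM, filterByExpr, quasi-likelihood F test, two-sided), with 8 residual degrees of freedom and Benjamini-Hochberg adjustment over 16296 genes at 0.05. The scripts were tested on simulated data. CPM values are TMM-scaled, and standard errors are the log2 fold change over the square root of F. The DEGseq test that the study names was not used, and edgeR was chosen because it takes the libraries of a group as replicates. No pair of replicate libraries was identical (chi-square per gene 3.73 to 20.2). Same-numbered libraries deviated with correlations of -0.173 to 0.065, so numbers did not pair them. Promoters and positions came from RefSeq (GRCm38.p6), and strands, exons and overlaps of genes from GENCODE.

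Named genes were all 9 members, genes of the wider lists past the threshold, the highest and lowest of each list per comparison, and the 5 genes most like the members' mean. Members and lists were chosen with earlier results of these data known. Alternatives were DESeq2 1.42.0, RLE and upper-quartile factors, omission of the filter, a filter of 1 CPM in 3 libraries, limma 3.58.1 on log2(RPKM + 1) and log2(RPKM + 0.1), the compared groups alone, a block for the replicate number, a stricter threshold (adjusted p of at most 0.001 and absolute log2 fold change of at least 1), and leaving out each library. Counts of groups that do not overlap, and of marker genes, without F0_5NC replicate 1 were added after seeing the data.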

Additional observations from a re-analysis of the deposited data

How the results depend on the processing

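None of the 9 genes was called in any of the 4 comparisons under any alternative run, DESeq2 included, although DESeq2 called 20, 28, 138 and 35 of all genes for knockdown, overexpression, the controls and the difference of effects, where edgeR called 4, 0, 54 and 0. With the replicate number as a block (replicate block) the medians of the 9 genes were 0.174, -0.28, -0.312 and 0.454. Leaving out 1 library moved the median between the controls from -0.371 to -0.153, the latter without F0_5NC replicate 1. Over the libraries left out, the log2 fold change ran through 0 for Gata4 (-0.248 to 0.043), Dmrt1 (-0.198 to 0.051) and Fshr (-0.258 to 0.162) with overexpression, for Wt1 (-0.142 to 0.13), Dmrt1 (-0.021 to 0.225) and Fshr (-0.371 to 0.048) between the controls, and for Wt1 (-0.065 to 0.2), Dmrt1 (-0.178 to 0.061) and Fshr (-0.01 to 0.398) in the difference of effects. The last value of Dmrt1 was also above 0 in limma, at 0.004 with a pseudocount of 1 and 0.002 with 0.1. The cause was not tested. All other alternatives kept the direction of each gene and moved no median by more than the spread between replicates (SD 0.154). With 3 libraries a group and 9 to 38 counts of Amh, depth limits that gene most.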
